A study of Mus musculus with 16 samples.

Results

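*Il10*+ Th2 cells of lung and mesenteric lymph node (MLN) were the CD4+ IL-4eGFP+ T cells of either organ in which at least 1 unique molecular identifier (UMI, a tag that counts 1 captured mRNA molecule) of *Il10* was found. They numbered 107 of 4714 cells that had over 500 UMIs, over 500 genes, under 7% mitochondrial UMIs and a productive TCRα and TCRβ chain. The members were chosen by the *Il10* count alone, so the *Il10* values below describe the choice and carry no test. Other genes were compared with those of *Il10*- cells of the same library, chosen to be nearest in UMIs, and between the *Il10*+ cells of both organs.

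IL-10 is a cytokine that limits inflammation by acting on macrophages, dendritic cells and T cells through the IL-10 receptor and STAT3. Th2 cells are a known source of it during worm infection, besides regulatory T cells, type 1 regulatory cells and myeloid cells. In T helper cells of several lineages the transcription factors c-Maf (*Maf*) and Blimp-1 (*Prdm1*) act on *Il10*, and inhibitory receptors are often found on cells that make the cytokine.

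Lung and MLN came from 2 4get mice on the C57BL/6 background, aged 13 weeks, which carry an IL-4eGFP reporter and had received 500 third-stage larvae of *Nippostrongylus brasiliensis* subcutaneously 10 days before. CD4+ IL-4eGFP+ cells were sorted from both organs, and a 5′ gene expression and a TCR library were made from each, so that lung 1 and MLN 1 belong to mouse 1 and lung 2 and MLN 2 to mouse 2. All animals were infected, and no uninfected group was among the libraries used. The reporter marks cells licensed for *Il4* transcription, not the secretion of IL-4, it also marks NKT cells, and the perfused lung still held intravascular cells. A later run of 2 other 4get mice of the same infection, aged 10 weeks, provided mediastinal lymph node (medLN) and MLN cells of an IL-4eGFP+ and an IL-4eGFP- gate. The kept cells of mouse 1 held 8507249 UMIs in lung and 14512767 in MLN, and those of mouse 2 2798232 and 4477888.

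The share of *Il10*+ cells was 66 of 1082 cells in lung 1 (6.1%, exact Clopper-Pearson 95% interval 4.75% to 7.70%), 12 of 416 in lung 2 (2.88%, 1.50% to 4.98%), 25 of 2462 in MLN 1 (1.02%, 0.658% to 1.50%) and 4 of 754 in MLN 2 (0.531%, 0.145% to 1.35%). Both lung libraries had a larger share than both MLN libraries, and lung 1 alone held most of the members. These intervals cover counting error only. Lung 1 was also the deepest library, with a median of 6910 UMIs per cell against 5765.5 in lung 2, 4980 in MLN 1 and 4971 in MLN 2. After each cell had been thinned to 2000 UMIs, an *Il10* UMI was left in 44 of 1068 cells (4.12%), 5 of 408 (1.23%), 6 of 2411 (0.249%) and 2 of 743 (0.269%) in the same order, which kept lung above MLN, while the order of the MLN libraries turned.

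Across the libraries the members held 398 *Il10* UMIs, of which lung 1 had 320, lung 2 30, MLN 1 44 and MLN 2 4. The count per member was uneven. A single UMI was found in 25 of 66 members in lung 1, 7 of 12 in lung 2, 17 of 25 in MLN 1 and all 4 in MLN 2, and the highest count in a cell was 36, 10, 12 and 1. Of the members, 53 lay just inside the threshold with 1 UMI, and the *Il10*- cells just outside it had 0 in all cases. *Il10* (ENSMUSG00000016529) lies at chr1:131019845-131024974 on the plus strand of GRCm38.

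**Figure D1:**
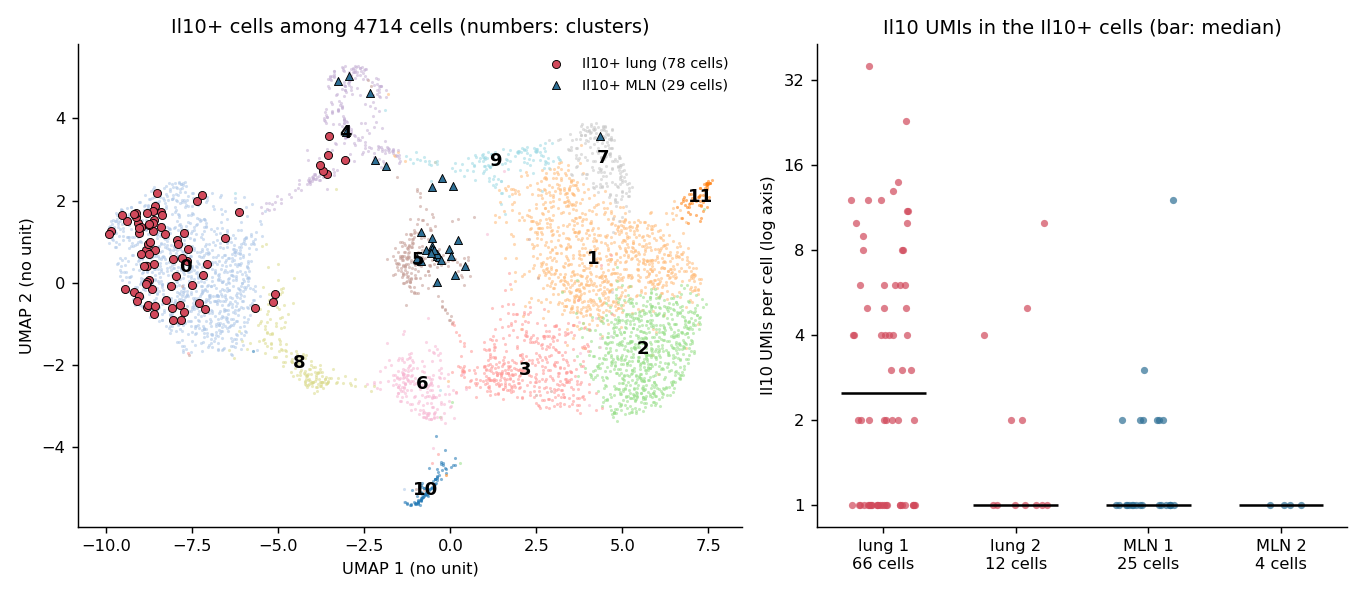
Left, UMAP of all 4714 cells in arbitrary units, colored and numbered by cluster, with the 78 *Il10*+ lung cells as circles and the 29 *Il10*+ MLN cells as triangles. Right, *Il10* UMIs in each *Il10*+ cell by library on a log axis, where bars are medians (2.5 in lung 1 and 1 in the others). Most members sit in clusters 0 and 5, and the counts reach 36 in lung 1.

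The label of these cells was checked against marker genes. All 107 members had UMIs of CD3 genes, and *Cd4* was found in 87 of the 107 *Il10*+ cells (81.3%) and 429 of the 535 matched cells (80.2%). At least 1 of the type 2 cytokine genes *Il4*, *Il5* and *Il13* was seen in 92 members (86.0%) against 400 matched cells (74.8%). Transcripts of other helper lineages were rare, with *Ifng* in 1 member, *Il17a* in 1 and *Il21* in 2. *Foxp3*, the defining factor of regulatory T cells, was found in 2 members and 4 matched cells, while *Ikzf2*, which many regulatory T cells express, was seen in 21 members and 67 matched cells. Of the 12 myeloid markers only *Cd74* gave UMIs in members, 14 in lung 1 and 5 in MLN 1, and the other 11 were at 0. Of 8 B cell markers *Ighm* gave 63 of the 64 UMIs found in members, with 1 of *Cd79b* in MLN 1 and the other 6 at 0. Of the CD8 genes *Cd8a* was at 0 in members and matched cells, whereas *Cd8b1* was at 25.3 against 9.82 CPM in lung 1, 0 against 2.87 in lung 2, 27.3 against 10.1 in MLN 1 and 24.1 against 4.82 in MLN 2, from 15, 0, 6 and 1 UMIs in members, and its part in the results was not tested. Extra TCR chains, meaning more than 1 TCRβ or more than 2 TCRα chains, were found in 5, 1, 1 and 0 members of lung 1, lung 2, MLN 1 and MLN 2. Among the matched cells, which were 330, 60, 125 and 20 in number, they were found in 8, 3, 18 and 1. Over pairs of libraries 24 barcodes occurred in more than 1 library, 13 of them in kept cells and none with the same TCR, and 1 was that of a member.

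Clustering, made without *Il10*, *Maf*, *Prdm1* and TCR genes, put 69 of the members (64.5%) in an effector-like cluster of mostly lung cells (cluster 0, 1139 cells) and 20 in an effector-like cluster of mostly MLN cells (cluster 5, 236 cells). *Il10* was found in 6.06% of the former and 8.47% of the latter. A proliferating-like cluster (cluster 4, 290 cells) held 12 members, 6 from each organ, and 6 members lay in clusters 8 and 9. None was among the 2726 cells of the other 7 clusters, which allows a share of cells with an *Il10* UMI of up to 0.110% at this depth but sets no limit on cells that express it. They included both follicular helper-like clusters (975 and 195 cells), the interferon-responding-like (450 cells) and the innate-like cluster (88 cells). In MLN 1, cluster 5 took 68% of the members but 7.2% of the depth-matched *Il10*- cells, and in MLN 2 75% against 5%. In lung 1, cluster 0 took 86.4% of the members and 73.9% of the matched cells, and in lung 2 100% against 83.3%. The members therefore differed in cluster from *Il10*- cells far more in MLN than in lung, and a comparison matched on cluster is given after the main one.

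The main comparison set the summed UMIs of *Il10*+ cells of each library against those of 5 depth-matched *Il10*- cells per member from the same library, with the library as a block (4 libraries from 2 mice). Among 3867 genes tested, 40 passed an adjusted p of 0.05 (edgeR's quasi-likelihood test, Benjamini-Hochberg), which is 1.03%, with 26 higher and 14 lower in *Il10*+ cells. All 14 lower genes were lower in each of the 4 libraries, and 22 of the 26 higher genes were higher in each, the exceptions being *Areg*, *Capg*, *Ifitm3* and *Pparg*, which were higher in 3. The number of calls fell to 16 without lung 1, to 24 without lung 2 and to 20 without cells that had extra TCR chains, and it was 0 without the library block, where 205 genes had an unadjusted p under 0.05 and all 40 kept their sign. With 4 members in MLN 2, single cells weighed on its sums. Of 15 higher genes examined for this, *Fabp5*, *Glrx*, *Ikzf3*, *Il2ra*, *Lman1* and *Ptms* were no longer above the matched cells in MLN 2 without the UMIs of their top cell, *Lman1* was not in lung 2, and none turned in lung 1 or MLN 1. In summed counts, more cells with a transcript and more transcript per cell cannot be told apart, so shares of cells with a UMI are given as well. Levels below are CPM (the summed UMIs of a gene scaled to an equal total for each sum, with TMM normalization), given for *Il10*+ against matched cells, and errors of log2 fold changes are standard errors.

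*Lag3* and *Il2ra* had the largest increases by the rule for named genes. *Lag3*, whose product binds MHC class II and restrains T cell activation, had 250.0 CPM against 72.3 CPM in lung 1, 545 against 9.69 in lung 2, 729 against 82.9 in MLN 1 and 979 against 46.9 in MLN 2. Every *Il10*+ sum lay above its matched sum, and the log2 difference was 3.10 ± 0.39 (adjusted p = 0.0021). It was detected in 58 of the 107 *Il10*+ cells (54.2%) and 96 of the 535 matched cells (17.9%). In lung 2, 23 of the 35 *Lag3* UMIs of members came from 1 cell, and its direction there was the same without that cell's UMIs. *Ctla4*, which competes with CD28 for its ligands, had 1246 CPM against 484 CPM in lung 1, 686 against 433 in lung 2, 565 against 83.9 in MLN 1 and 147 against 46.9 in MLN 2, a log2 difference of 1.60 ± 0.28 (adjusted p = 0.017), with both organs in the same direction. *Il2ra*, the α chain of the high-affinity IL-2 receptor, had 421 CPM against 88.2 CPM in lung 1, 374 against 64.6 in lung 2, 111 against 33.4 in MLN 1 and 73.4 against 5.22 in MLN 2. The groups did not overlap within an organ, and the log2 difference was 2.22 ± 0.23 (adjusted p = 0.00059). *Il2ra* was detected in 48 of 66 members in lung 1, 6 of 12 in lung 2, 4 of 25 in MLN 1 and 1 of 4 in MLN 2, against 119 of 330, 9 of 60, 6 of 125 and 1 of 20 matched cells, so that its MLN sums rested on 5 members, with 12 of 23 UMIs in 1 cell of MLN 1 and all 3 in 1 cell of MLN 2. Of the inhibitory and costimulatory receptor list, 12 of 22 genes could be tested, *Lag3* and *Ctla4* rose, *Cd28* fell, and the median log2 difference was 0.47 against -0.01 over all genes. *Pdcd1*, which encodes PD-1, did not pass (0.36 ± 0.32, adjusted p = 0.82).

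Among the 26 listed regulators of *Il10*, 21 were tested and 2 passed, both upward, and the median log2 difference of the list was 0.17. *Maf* had 595 CPM against 312 CPM in lung 1, 452 against 355 in lung 2, 676 against 272 in MLN 1 and 1003 against 271 in MLN 2 and was higher by 1.11 ± 0.20 on the log2 scale (adjusted p = 0.020). It was above its matched sum in each library, most in MLN 2, where 24 of the 41 UMIs of the 4 members came from 1 cell. Without that cell's UMIs, MLN 2 members were at 410 against 251 CPM and MLN 1 members, with all theirs, at 637 against 246 CPM (not TMM-normalized). *Maf* was found in 95 of the 107 *Il10*+ cells (88.8%) and 394 of the 535 matched cells (73.6%). In lung 2 alone its share was lower in members, with 8 of 12 (66.7%) against 43 of 60 matched cells (71.7%). *Maf* was listed as a marker of these cells with earlier results of these data known, so its direction is no independent evidence. *Ikzf3*, which encodes the zinc finger factor Aiolos, had 299.6 CPM against 138 CPM in lung 1, 218 against 145 in lung 2, 352 against 130.4 in MLN 1 and 269 against 146 in MLN 2 and a log2 difference of 1.10 ± 0.19 (adjusted p = 0.015), with 10 of its 11 UMIs in members of MLN 2 from 1 cell. *Prdm1* had too few counts to be tested and was found in 18 of the 107 *Il10*+ cells (16.8%) and 41 of the 535 matched cells (7.66%). Of the other factors, *Ahr* (1.27 ± 0.43, adjusted p = 0.23), *Nfil3* (0.71 ± 0.51, 0.72), *Batf* (0.61 ± 0.22, 0.29), *Gata3* (1.06 ± 0.33, 0.17) and *Irf4* (0.19 ± 0.31, 0.96) did not pass.

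Of 25 listed type 2 effector genes 13 were tested, 4 rose and none fell, and their median log2 difference was 1.32. *Il1rl1* encodes ST2, the receptor for IL-33, and had 1022 CPM against 487 CPM in lung 1, 904 against 336 in lung 2, 169 against 12.1 in MLN 1 and 73.4 against 0 in MLN 2 (log2 difference 1.79 ± 0.37, adjusted p = 0.041). *Areg*, the epidermal growth factor receptor ligand amphiregulin, had 4167 CPM against 1555 CPM in lung 1, 1714 against 319.7 in lung 2, 357 against 6.06 in MLN 1 and 0 against 5.22 in MLN 2 (log2 difference 2.54 ± 0.46, adjusted p = 0.020), so it was higher in 3 of 4 libraries. *Pparg*, a nuclear receptor used by Th2 cells, was likewise higher in 3 of 4 (1.75 ± 0.34, adjusted p = 0.030), and *Il2ra* was the fourth gene of the list. The type 2 cytokine genes themselves did not pass. *Il4* had 1062 CPM against 485 CPM in lung 1, 421 against 510.3 in lung 2, 1361 against 357 in MLN 1 and 636 against 261 in MLN 2, thus higher in 3 of 4 libraries (log2 difference 1.11 ± 0.26, adjusted p = 0.066), and 193 of its 282 UMIs in members of MLN 1 came from 1 cell. *Il13* differed by 0.91 ± 0.51 (adjusted p = 0.60), with 613 CPM against 262 CPM in lung 1, 140.2 against 194 in lung 2, 0 against 14.2 in MLN 1 and 220.2 against 0 in MLN 2. In cells, *Il4* was found in 84 of the 107 *Il10*+ cells (78.5%) and 375 of the 535 matched cells (70.1%) and *Il13* in 41 of the 107 *Il10*+ cells (38.3%) and 111 of the 535 matched cells (20.7%). *Il5* was found in 4 members and 32 matched cells and could not be tested, and *Il4*, *Il5* and *Il13* occurred together in 1 member against 19 matched cells (3.55%).

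**Figure D2:**
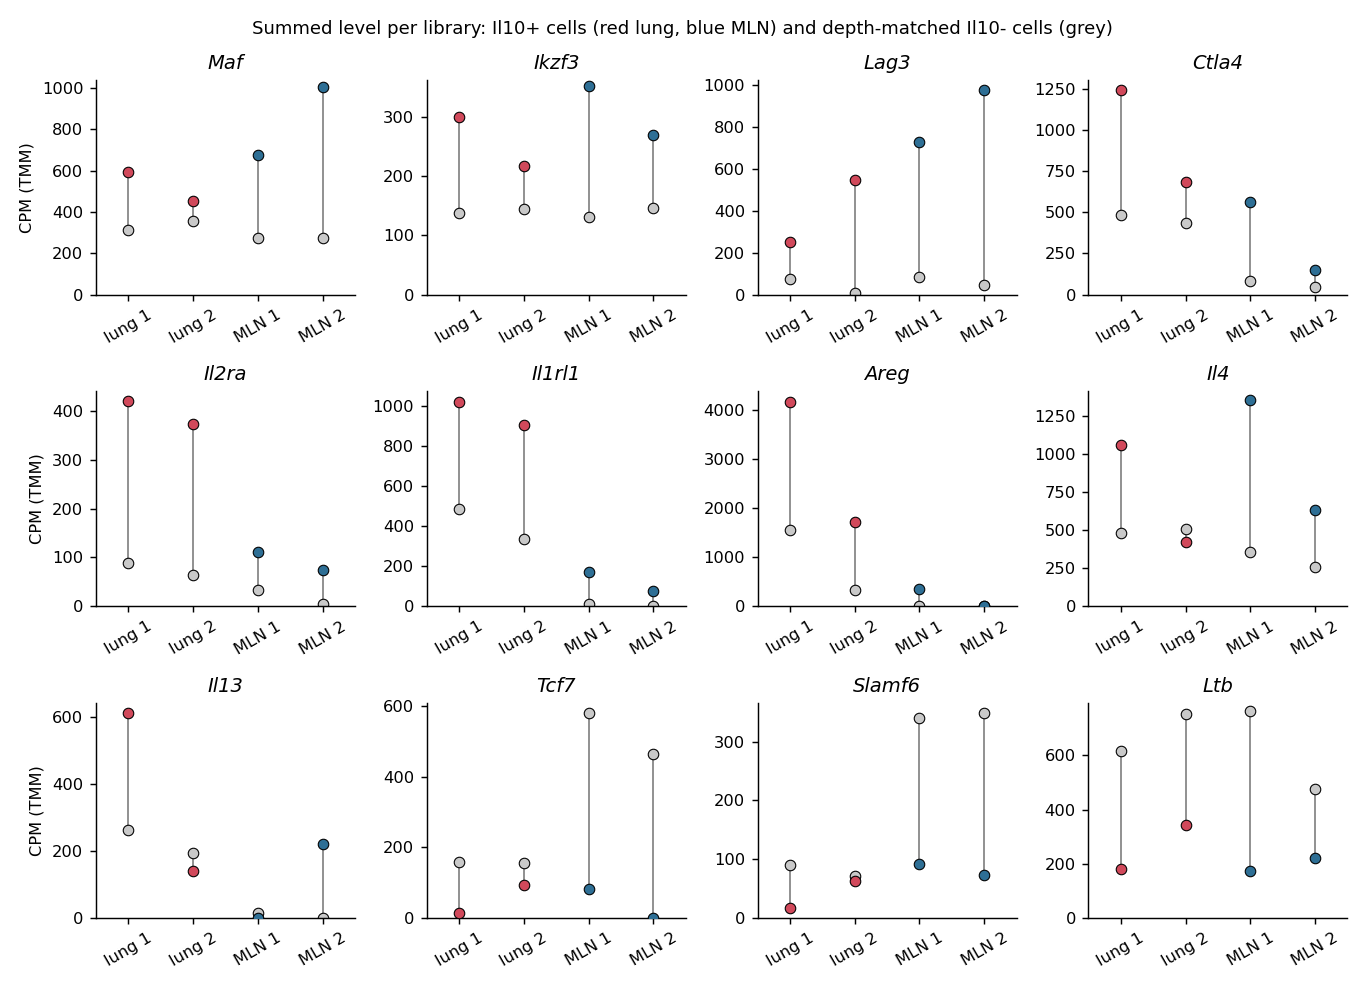
Expression (CPM of summed UMIs, TMM-normalized) of 12 genes in each library, with *Il10*+ cells in red for lung and blue for MLN and depth-matched *Il10*- cells in grey. *Lag3*, *Il2ra*, *Ctla4*, *Maf* and *Ikzf3* were higher and *Tcf7*, *Slamf6* and *Ltb* lower in *Il10*+ cells of all 4 libraries, for *Il2ra* and *Ikzf3* in MLN 2 through the UMIs of 1 cell, whereas *Il4* and *Il13* were not higher in all.

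Other higher genes by the rule for named genes had diverse functions. *Arl5a*, a small GTPase of the ARF family, had 115 CPM against 30.6 CPM in lung 1, 125 against 42.0 in lung 2, 86.9 against 8.09 in MLN 1 and 73.4 against 15.6 in MLN 2 (log2 difference 2.15 ± 0.30). Most of its matched sums lay below the level of the filter on low counts. It entered the test largely through its *Il10*+ sums, so no p-value is given for it. *Glrx*, a glutaredoxin that reduces protein disulfides, was higher by 1.62 ± 0.17 (adjusted p = 0.00065), but in MLN 2 1 cell gave 30 of its 31 UMIs. Higher by 1.49 ± 0.23 was *Fabp5*, a fatty acid-binding protein. *Gatsl3* (log2 difference 1.65 ± 0.26), also named *Castor1*, encodes an arginine sensor upstream of mTORC1, *Lman1* (1.39 ± 0.25) a cargo receptor between the endoplasmic reticulum and the Golgi, *Ehd1* (1.32 ± 0.26) a protein of endosomal recycling and *Foxp1* (1.2 ± 0.20) a forkhead factor of T cell quiescence. *Ptms*, encoding parathymosin, lies next to *Lag3* on chromosome 6 (chr6:124913681-124920103 and chr6:124904361-124911705, both on the minus strand of GRCm38). Its log2 difference was 1.25 ± 0.27 (adjusted p = 0.0498), and became -0.022 when cells were thinned to 2000 UMIs.

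*Tcf7*, *Lef1* and *Slamf6* were the genes of the memory and lymph node list that were lower. *Tcf7*, which encodes TCF-1, a factor of naive and memory T cells, had 11.9 CPM against 158 CPM in lung 1, 93.5 against 155 in lung 2, 82.0 against 580.2 in MLN 1 and 0 against 464 in MLN 2. The log2 difference was -2.94 ± 0.39 (adjusted p = 0.0032), and the transcript was detected in 11 of the 107 *Il10*+ cells (10.3%) and 295 of the 535 matched cells (55.1%). *Slamf6*, a self-ligand receptor of the SLAM family, had 15.9 CPM against 89.0 CPM in lung 1, 62.3 against 71.1 in lung 2, 91.7 against 341 in MLN 1 and 73.4 against 349 in MLN 2 (-1.94 ± 0.29, adjusted p = 0.0069). For both genes the lung 2 sums were the closest of the 4 pairs. *Ltb*, the β subunit of lymphotoxin, had 181 CPM against 617 CPM in lung 1, 343 against 753 in lung 2, 174 against 765 in MLN 1 and 220.2 against 475 in MLN 2 (-1.64 ± 0.20, adjusted p = 0.0016) and was thus lower in each library. *Lef1*, a relative of TCF-1, fell by 1.66 ± 0.30 on the log2 scale, and *Cd28*, the main costimulatory receptor, by 1.15 ± 0.25. Of the memory and lymph node list 9 of 15 genes were tested, 3 fell (*Tcf7*, *Lef1*, *Slamf6*), 1 rose (*Foxp1*) and the median was -1.03. The follicular helper list had 3 tested genes, of which *Slamf6* and *Sh2d1a* (-1.25), the adaptor SAP, fell. Further lower genes were *Rflnb* (-2.51) and *Evl* (-1.12), both of actin organization, *Asap1* (-2.31), an Arf GTPase-activating protein, *Gpr183* (-1.04), the oxysterol receptor EBI2, *Tespa1* (-0.98), a TCR signaling protein, and *Ighm* (-1.01), the immunoglobulin μ chain.

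Of the other lists, none of 18 tested TCR-response and early-response genes, 13 cell cycle genes, 6 interferon-stimulated genes or 7 genes of the IL-10 receptor and its signaling passed. The last included *Il10ra* (0.53 ± 0.23, adjusted p = 0.44) and *Stat3* (-0.20 ± 0.20). Of the TCR-response and early-response list, however, 4 of 18 tested genes rose in MLN alone and 9 of 12 in the IL-4eGFP+ cells of the later lymph node run. Over all genes, 117 of 3867 rose in MLN alone and 236 of 5042 in the later run. Of 9 tested regulatory T cell genes, with a median of 0.37, *Il2ra*, *Ctla4* and *Capg* rose, all of which activated T cells use as well. Homing and residency genes were tested in 17 cases, where *Rgs1*, a regulator of chemokine receptor signaling, rose (1.15) and *Gpr183* fell. *Lgals1* (0.65), which encodes galectin-1, was the 1 gene to pass of 9 cytotoxic and chemokine genes (median 0.65), *Aldoa* (0.59), a glycolytic aldolase, of 11 glycolysis and hypoxia genes, and *Ltb* of 7 other helper cytokine genes. Neither of the 2 tested neighbors of the *Il10* locus passed. Mitochondrial UMIs had medians of 2.59%, 2.79%, 2.47% and 2.16% in members against 2.80%, 2.65%, 3.25% and 3.06% in matched cells of lung 1, lung 2, MLN 1 and MLN 2.

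When the *Il10*- cells were matched on cluster as well as depth, 60 of 3863 genes passed (1.55%), 37 higher and 23 lower. By the rule for named genes, the 12 higher genes with the largest log2 differences included *Lag3* (2.11 ± 0.25), *Il2ra* (1.95 ± 0.20) and *Arl5a* (1.76 ± 0.23). *Glrx* (1.47 ± 0.15), *Ctla4* (1.27 ± 0.20) and *Foxp1* (1.25 ± 0.15) were also among them. The *Il10*+ cells are the same as in the main comparison, so the results are not independent of each other. *Maf* was higher by 0.79 ± 0.14 (adjusted p = 0.0076) and *Ikzf3* by 1.12 ± 0.18 (adjusted p = 0.0031), while *Rora*, the nuclear receptor RORα, was lower by 1.24 ± 0.22. *Il4* passed here (1.10 ± 0.23, adjusted p = 0.023), and so did *Pdcd1* (0.83), *Csf1* (1.00), a macrophage growth factor, and *Socs3* (1.16), a feedback inhibitor of STAT3 signaling. *Il13* did not (0.30 ± 0.39). *Tcf7* was lower by 2.04 ± 0.33 (adjusted p = 0.0032) and *Ltb* by 1.68 ± 0.16 (adjusted p = 4.3e-05), and the chemokine receptor gene *Ccr4* was lower too (-1.37). *Slamf6* (-1.08 ± 0.30, adjusted p = 0.090) and *Lef1* (-0.83 ± 0.29) did not pass. No gene passed without the library block, and calls numbered 10 without lung 1, 36 without MLN 1 and 47 and 76 without lung 2 and MLN 2. In MLN 2 the match on depth was poorer, with 160618 UMIs in 20 matched cells against 41506 in 4 members.

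In lung alone 44 of 3867 genes passed (1.14%), 26 higher and 18 lower, and in MLN alone 160 (4.14%), 117 higher and 43 lower. These 2 comparisons each rest on 2 libraries, 1 of them with few members. Without lung 1, which leaves the 12 members of lung 2, 4 genes passed for lung, and without lung 2 28. The fit took its estimate of spread from all 4 libraries. The lung count also moved without an MLN library, to 29 without MLN 1 and 153 without MLN 2. The genes tested changed as well, to 3822 and 5486, and the cause was not tested. Without MLN 1, which leaves the 4 members of MLN 2, 12 passed for MLN, of which 9 were among the 160, and without MLN 2 242, so the MLN calls rested mainly on the 25 members of MLN 1.

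*Il10*+ lung cells had higher *Lag3* (2.43 ± 0.38), *Il2ra* (2.31 ± 0.22), *Arl5a* (1.84 ± 0.31), *Areg* (1.80 ± 0.21), *Fabp5* (1.75 ± 0.23) and *Ttc39c* (1.82 ± 0.39) than matched lung cells. *Ctla4* (1.12) and *Pdcd1* (1.05, adjusted p = 0.0088) rose as well, but in lung 2 14 of 17 *Pdcd1* UMIs came from 1 of 12 members, and without them lung 2 members were at 43.0 against 106 CPM (not TMM-normalized). *Maf* had a log2 difference of 0.74 ± 0.20 and did not pass in lung alone (adjusted p = 0.092). The largest decreases were *Isg15* (-3.26 ± 0.44), an interferon-induced ubiquitin-like protein, *Tcf7* (-2.79 ± 0.46), *Klf3* (-2.43 ± 0.43), a Krüppel-like factor, and *Slamf6* (-1.97 ± 0.42). *Cenpa* (-1.75), the centromeric histone, and *Cdc25b* (-1.73), a phosphatase of the cell cycle, were also lower, with 1 UMI each in members of lung 2. Of 13 tested genes of the cell cycle list 0 passed in lung, and their median was -0.06.

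In *Il10*+ MLN cells genes of effector Th2 cells were higher than in matched MLN cells. Of 13 tested type 2 effector genes 8 rose, with a median log2 difference of 2.24. *Areg* was higher by 5.57 ± 0.51, which rests on MLN 1, where 47 of its 74 UMIs in members came from 1 cell, while MLN 2 had 0 CPM against 5.22. *Il1rl1* was higher by 3.91 ± 0.44, *Cysltr1*, a leukotriene receptor, by 3.18 and *Gata3*, the lineage factor of Th2 cells, by 2.24. *Il4* was higher by 1.74 ± 0.26 (adjusted p = 0.00022), but 193 of its 282 UMIs in members of MLN 1 came from 1 cell. Without that cell's UMIs, MLN 1 members were at 405 against 323 CPM (not TMM-normalized). Of 21 tested *Il10* regulators 9 rose, *Maf* (1.51 ± 0.22, adjusted p = 0.00011), *Ahr* (3.05), *Nfil3* (2.69), *Gata3*, *Id2*, *Bhlhe40*, *Ikzf3*, *Rbpj* and *Junb*. The largest change by the rule was *Gzmb*, the cytotoxic protease granzyme B, with a log2 difference of 6.75 ± 0.73 (adjusted p = 3.9e-06). Its 655 UMIs in MLN 1 lay in 7 of 25 members, 241 of them in 1 cell, and its 9 UMIs in MLN 2 in 2 of 4. Without the 8 UMIs of 1 of these, MLN 2 members were at 24.1 against 67.5 CPM (not TMM-normalized), so the direction rested on MLN 1. *Lgmn* (3.92), the lysosomal protease legumain, *St3gal6* (3.88), a sialyltransferase, *Fgl2* (3.67), a fibrinogen-like protein secreted by T cells, and the non-coding transcript *Gm14005* (3.59) followed. *Tcf7* (-3.08), *Nrip1* (-2.92), *Rflnb* (-2.89), *Asap1* (-2.69), *Eml4* (-2.47) and *Camk2d* (-2.46) were lower. Homing and residency genes rose in 7 of 17 tested cases, including *Ccr9*, a receptor that guides T cells to the small intestine (2.94), and *Cxcr6* (2.72). In the same list 1 gene, *Gpr183*, fell.

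Whether the difference between *Il10*+ and *Il10*- cells itself differed between organs was tested with an interaction term, and 46 of 3867 genes passed (1.19%). For 4 the lung effect was the higher, for 42 the MLN effect. The number of calls was 20 without lung 1, 27 without lung 2, 7 without MLN 1, of which 4 were among the 46, and 120 without MLN 2. *Tigit* and *Pdcd1*, which encode inhibitory receptors, had a higher effect in lung, by 2.19 ± 0.40 (adjusted p = 0.0050) and 1.80 ± 0.36 (adjusted p = 0.011), although in lung 2 members were above matched cells only with the UMIs of 1 cell, 14 of 17 for *Pdcd1* and 5 of 9 for *Tigit*. *Tigit* was lower in *Il10*+ than in matched cells of MLN (-1.57). *Gzmb* (-5.88 ± 0.99, adjusted p = 0.0021), *Isg15* (-4.17 ± 0.51), *Ccr9* (-3.91 ± 0.49), *Lztfl1* (-3.38 ± 0.34) and *St3gal6* (-3.71 ± 0.43) had a higher effect in MLN. *Lztfl1* (chr9:123694416-123717697, minus strand of GRCm38) lies inside the span of *Ccr9* (chr9:123678439-123784330, plus strand), so their reads may not be fully separate. Of the type 2 effector genes 6 of 13 had a higher effect in MLN, among them *Areg* (-3.77 ± 0.58), *Il1rl1* (-2.72 ± 0.48) and *Gata3* (-2.06 ± 0.27). The levels in matched *Il10*- cells differed as well, and their part in these effects was not tested. *Il1rl1* was at 487 and 336 CPM in those of lung and at 12.1 and 0 CPM in those of MLN. *Ctla4* rose in both organs, and its effect was the higher in MLN (-1.47 ± 0.35, adjusted p = 0.036). For *Maf* (-0.77 ± 0.29, adjusted p = 0.39), *Lag3* (-0.99 ± 0.56, 0.75), *Il2ra* (0.42 ± 0.47, 0.95) and *Tcf7* (0.30 ± 0.78, 0.99) no difference of the effects was detected, with errors that leave room for one.

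**Figure D3:**
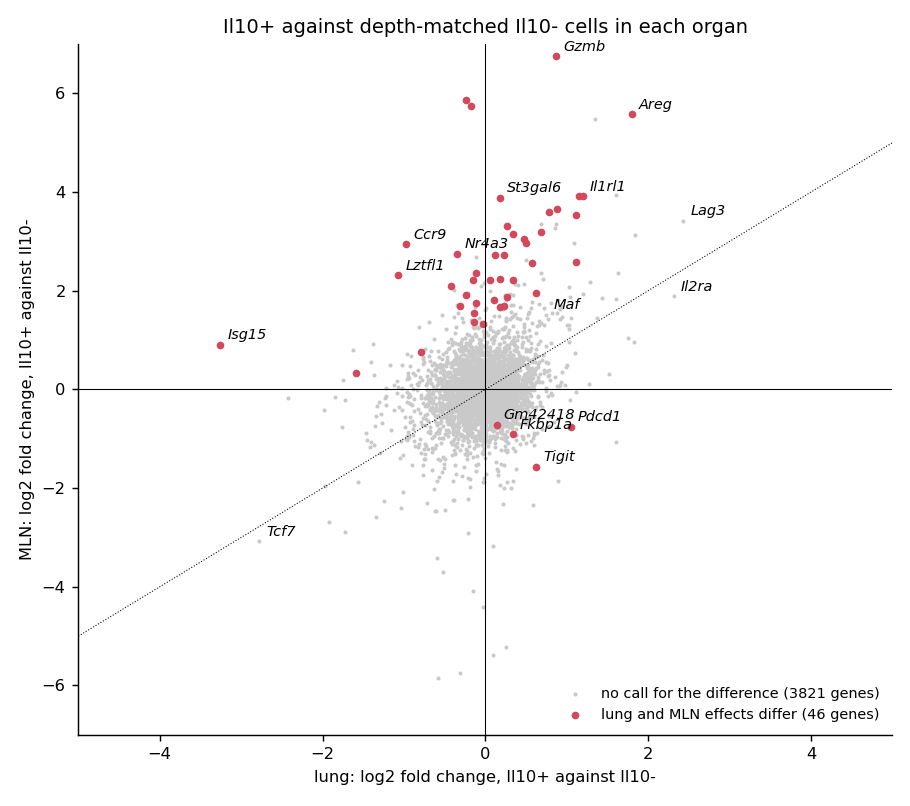
Log2 difference between *Il10*+ and depth-matched *Il10*- cells in lung (x axis) and MLN (y axis) for 3867 genes, with the 46 genes called for a difference between the organs in red, the others in grey and a dotted line where both are equal. Most red points lie on the side of the higher MLN effect, among them *Gzmb*, *Isg15* and *Ccr9*, while *Tigit* and *Pdcd1* lie on the other.

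*Il10*+ lung cells were then compared directly with *Il10*+ MLN cells, with 2 libraries each. Of 2408 genes 139 passed (5.77%), 109 higher in lung and 30 higher in MLN, and 222 passed without MLN 2. Organ and dissociation of the tissue moved together here and cannot be told apart. The number of members differed too, with 66 in lung against 25 in MLN of mouse 1 and 12 against 4 in mouse 2. Its part was not tested. *Calca*, a precursor of calcitonin gene-related peptide, had 279 UMIs in 24 lung members and none in MLN members, which is at least 36.6-fold higher against a floor of 3 UMIs over both MLN libraries. Of these, 273 were from lung 1, 127 of them in 1 cell, and with the 6 UMIs of lung 2 alone it was at least 7.50-fold. By the same floor *Rgs2*, a regulator of G protein signaling, was at least 22.5-fold, *Dennd4a* at least 13.9-fold, the IL-1 decoy receptor gene *Il1r2* at least 9.58-fold and *Igfbp7* at least 8.80-fold higher, and with lung 2 alone these bounds were 51.3, 10.0, 8.75 and 12.5. In lung 2 1 cell held 30 of 41 *Rgs2* UMIs, 3 of 8 of *Dennd4a*, all 7 of *Il1r2* and 6 of 10 of *Igfbp7*. The organs differed in the same direction in matched *Il10*- cells for *Calca* (355 and 258 CPM in lung 1 and lung 2 against 0 in both MLN libraries), *Rgs2* (292 and 336 against 3.66 and 4.82), *Dennd4a* (197 and 344 against 11 and 9.64) and *Igfbp7* (88.4 and 89.0 against 0.916 and 0), so these contrasts are not shown to be particular to *Il10*+ cells. Of 13 tested type 2 effector genes 7 were higher in lung, including *Areg* (3.55 ± 0.55), *Il1rl1* (2.74 ± 0.36) and *Pparg* (2.31 ± 0.53). Matched *Il10*- cells differed in the same direction for *Areg* (1555 and 319.7 CPM in lung 1 and lung 2 against 6.06 and 5.22 in MLN 1 and MLN 2) and *Il1rl1* (487 and 336 against 12.1 and 0). For these 2 genes, too, the contrast is not shown to be particular to *Il10*+ cells. *Il13* also passed (3.37 ± 0.92, adjusted p = 0.044), but the groups overlapped, since on the scale of this comparison lung 1 had 661 CPM and lung 2 157, against 0 CPM in MLN 1 and 241 in MLN 2, the last from 9 UMIs of 1 cell. Early-response genes were higher in lung in 11 of 16 cases, with a median log2 difference of 2.87 against -0.02 over all genes, such as *Fos* (3.73), *Junb* (3.71), *Nr4a1* (3.36) and *Tnfaip3* (4.26). These genes are also known to respond to enzymatic digestion, which the lung underwent, so digestion and organ cannot be told apart here. *Il10ra*, the ligand-binding chain of the IL-10 receptor, was higher in lung members (2.20 ± 0.40, adjusted p = 0.0027). In MLN members *Isg15* (-5.17), *Gzmb* (-4.55), *Ccr9* (-3.90), *Hic1* (-3.40), *St3gal6* (-2.64) and *Gimap7* (-2.42) were higher, as log2 of lung over MLN. *Maf* (-0.59 ± 0.31, adjusted p = 0.36), *Lag3* (-1.23 ± 0.38, 0.073), *Ctla4* (1.24 ± 0.41, 0.11), *Il4* (-0.43 ± 0.38) and *Gata3* (0.35 ± 0.28) did not pass.

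Members with 1 *Il10* UMI and those with more are described without a test, since the count chose them. *Lag3* was found in 27 of 53 members with 1 UMI (50.9%) and 31 of 54 with at least 2 (57.4%), against 96 of 535 matched cells (17.9%). The mix of libraries differed, since lung 1 gave 25 of the former and 41 of the latter. Within lung 1 the shares for *Lag3* were 7 of 25 (28.0%) and 22 of 41 (53.7%), against 56 of 330 matched cells (17.0%), and within MLN 1 14 of 17 (82.4%) and 7 of 8 (87.5%), against 35 of 125 (28.0%). Pooled over libraries, *Ctla4* was found in 45 (84.9%) and 52 (96.3%), against 322 (60.2%), and *Maf* in 45 (84.9%) and 50 (92.6%), against 394 (73.6%). *Prdm1* was found in 4 members with 1 UMI (7.55%), close to the 41 matched cells (7.66%), and in 14 with at least 2 (25.9%). Depth differed between these groups, with medians of 6143 UMIs for 1 *Il10* UMI, 8844.5 for at least 2 and 7055 in matched cells, and its part in these shares was not tested.

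TCR chains were used to ask whether *Il10*+ cells belonged to the same clones, defined within a mouse by identical TCRα and TCRβ nucleotide sequences. The 107 members fell into 105 clones. Of these, 33 had at least 2 cells of any kind and held 35 members beside 76 *Il10*- cells. Counted once for each member, 4 of 86 clone mates had an *Il10* UMI, where 107 of all 4714 cells did, and the difference was not tested. For the share of cells in expanded clones, only cells of the same library were counted, so a clone needed at least 2 cells in that library. This share was 33.3% of members against 31.2% of matched cells in lung 1, 16.7% against 16.7% in lung 2, 32.0% against 23.2% in MLN 1 and 25% against 10.0% in MLN 2. The mean difference of 6.48 percentage points (SD 6.81, n = 4 libraries, higher in 3 of 4) gave p = 0.25 in a two-sided exact sign-flip permutation test. With 4 libraries the smallest possible p is 0.12, so the test could not pass 0.05 and says nothing for or against a difference. No clone had *Il10*+ cells in both organs, although 6 clones with a member spanned them.

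Only 2 clones held more than 1 member, and their CDR3 nucleotide sequences are shown because they are the only shared receptors among *Il10*+ cells. The first, of mouse 1, had 3 lung and 5 MLN cells, of which 2 MLN cells had 1 *Il10* UMI each. The second, also of mouse 1, consisted of 2 lung cells, both *Il10*+, with 10 *Il10* UMIs in all and at most 8 in a cell. Capitals are not used, since no part of the sequences is singled out.
First clone, TRAV3-3 and TRAJ16: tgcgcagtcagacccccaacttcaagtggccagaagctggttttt
First clone, TRBV13-2 and TRBJ1-6: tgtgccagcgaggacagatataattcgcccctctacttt
Second clone, TRAV4D-3 and TRAJ32: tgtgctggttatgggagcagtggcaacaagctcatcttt
Second clone, TRBV19 and TRBJ2-2: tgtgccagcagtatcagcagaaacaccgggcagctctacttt
The α and β sequences are 45 and 39 bases long in the first clone and 39 and 42 in the second. No V or J segment was shared between them. *TRBV13-2* was the most frequent β segment of the members, with 19 cells (17.8%), against 13.3% of matched cells and 13.8% of all cells. None of the members carried the TRAV11 and TRAJ18 pair of invariant NKT cells, which 76 of all cells did.

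The run on lymph nodes of 2 other mice provided *Il10*+ cells that the choice of members had not used. Among IL-4eGFP+ cells *Il10* was found in 20 of 2065 medLN cells of the first mouse (0.969%), 19 of 2012 of the second (0.944%), 19 of 1986 MLN cells of the first (0.957%) and 26 of 1998 of the second (1.30%). In this run the TCR was not a criterion. By edgeR with the sample as a block, 349 of 5042 genes passed (6.92%), 236 higher and 113 lower. *Maf* had 430.1 CPM against 227 CPM in medLN 1, 755 against 231 in medLN 2, 582 against 260.1 in MLN 1 and 469 against 185 in MLN 2, a log2 difference of 1.29 ± 0.16 (adjusted p = 4.9e-05). *Prdm1*, too rare to test in the lung and MLN libraries of the first run, had 102 CPM against 16.1 CPM in medLN 1 and 263 against 10.3 in medLN 2. In MLN 1 it had 58.2 against 1.94 and in MLN 2 104 against 8.58, a log2 difference of 3.72 ± 0.37. It passed the filter on low counts only through its *Il10*+ sums, so no p-value is given for it. For both genes the lowest *Il10*+ sum lay above the highest matched sum. In all, 13 of 22 tested *Il10* regulators rose, with *Prdm1* counted among them, and none fell. They included *Ahr* (2.27), *Nfil3* (1.86), *Batf* (0.99) and *Egr2* (2.23).

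Effector genes of these lymph node cells were higher too. By the rule for named genes, *Areg* (5.80 ± 0.72), *Gzmb* (4.72 ± 0.29, adjusted p = 1.2e-07), *Il13* (4.14 ± 0.65) and *Csf1* (4.07 ± 0.26) had the largest log2 differences. The histamine-forming enzyme gene *Hdc* (3.94 ± 0.55) and *Neb* (3.84 ± 0.37), which encodes the muscle protein nebulin, followed. Most matched sums of *Areg* and *Hdc* and all of *Neb* lay below the level of the filter on low counts. These genes entered the test largely through their *Il10*+ sums, so no p-values are given for them. Of 11 tested type 2 effector genes 10 rose, *Il4* (2.39) among them. *Gzmb* was found in 44 of 84 *Il10*+ cells and 28 of 420 matched cells, and *Il13* in 17 and 14. *Lag3* (2.71), *Il2ra* (2.28), *Ctla4* (3.13) and *Entpd1* (2.78), the ectonucleotidase CD39, rose. Of the IL-10 receptor and signaling list *Il10ra* (2.12), *Socs3* (1.52) and *Bcl3* (1.83) rose. *Nsg2* (-5.05), *Tcf7* (-3.52), *Asap1* (-2.83), *Actn1* (-2.73), *Id3* (-2.58) and *Aff3* (-2.40) had the largest decreases by the same rule. *Foxp3* was found in 9 of the 84 *Il10*+ cells (0 and 0 in medLN, 2 and 7 in MLN), and 319 genes passed without *Foxp3*+ cells.

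The calls of the 4 lung and MLN libraries were followed into these other mice. All 26 higher genes were tested there and had the same sign, and 22 passed (84.6% of the 26 and 9.32% of the 236), where 5.58% of the 3708 genes tested in both runs were called higher. *Fabp5*, *Lgals1*, *Pparg* and *Tmsb4x* did not pass. All 14 lower genes had the same sign and 9 passed (64.3% of the 14 and 7.96% of the 113), against 2.35% of the genes tested in both. *Gpr183*, *Ighm*, *Ltb*, *Rps29* and *Tespa1* did not pass.

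**Figure D4:**
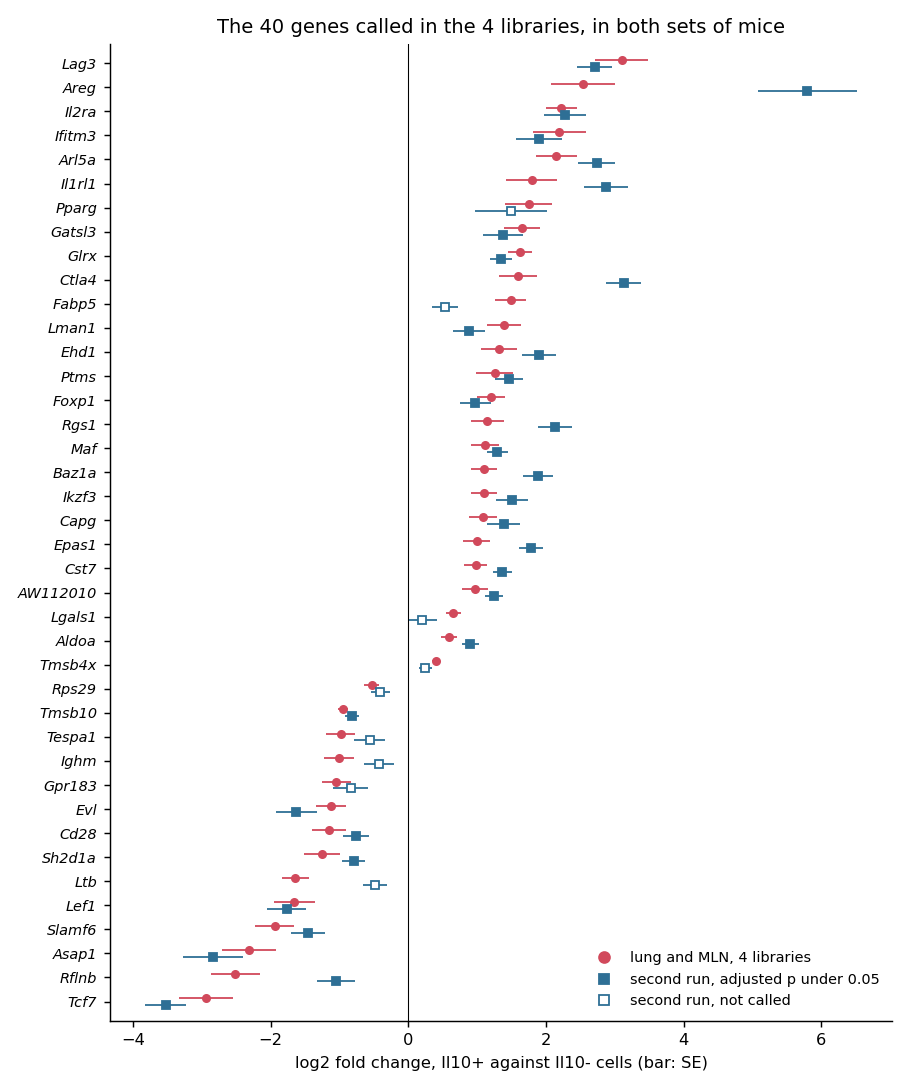
Log2 difference between *Il10*+ and depth-matched *Il10*- cells with its standard error for the 40 genes called in the 4 lung and MLN libraries (red circles) and in IL-4eGFP+ lymph node cells of 2 other mice (blue squares, filled where the adjusted p was under 0.05). All 40 genes have the same sign in both, and 31 squares are filled.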

How the data were processed

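Lung and MLN of 2 infected 4get mice provided the RNA and TCR libraries of sorted IL-4eGFP+ cells, with IL-4eGFP+ and IL-4eGFP- lymph node cells of 2 other mice. The deposited values are raw UMI counts for each gene, hashtag or TCR contig of a barcode, which the authors made with Cell Ranger without normalization, combining 2 sequencing runs for lung and MLN. The submitters' notes name Cell Ranger 2.1.1, 3.0.1 and 6.1.2 and the builds GRCm38 and mm10; gene positions are from GENCODE vM21.

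Of 6319 barcodes, 5938 had over 500 UMIs, over 500 genes and under 7% mitochondrial UMIs, and 4714 of these had both TCR chains. No doublet caller was used on these, and cells with extra TCR chains were left out as an alternative. Lymph node cells were assigned to mouse and organ by their hashtags with Seurat's HTODemux (quantile 0.99), which kept cells called singlets and left out hashtag doublets and negatives. Clusters came from Seurat 5.3.0 (2000 variable genes, 15 components, resolution 0.8) and were named from marker lists, part of which the study had chosen on these libraries. Each *Il10*+ cell was matched with 5 *Il10*- cells of its library, nearest in UMIs other than *Il10*, and UMIs were summed per library and set. Sums were tested with edgeR 4.0.16 in R 4.3.3 (filterByExpr, TMM, quasi-likelihood test, Benjamini-Hochberg, threshold 0.05) with the library as a block, since both sets of cells come from the same library. *Il10* and TCR genes were not tested. The filter on low counts took the sums of both sets together, so a gene could pass it through either set alone. A standard error is the log2 difference divided by the root of F. The p-values measure the spread between libraries, which come from 2 mice, and intervals cover counting error only. The edgeR fit was tested on simulated data for the main comparison, the match on cluster and the lymph node run. The fits for lung, MLN, the interaction and the *Il10*+ cells of both organs were not.

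The members, gene lists and tests were chosen with earlier results of these data known. Named genes were drawn from those past 0.05 that moved the same way in every library and had a mean of at least 50 CPM. Of these, the 12 with the largest difference in each direction were named (6 for lung, MLN, the interaction, organ and the lymph node run). The genes of the lists were named as well. *Baz1a*, *Cst7* and other genes outside this rule were counted only. Alternatives were DESeq2 1.42.0, its size factors, no filter, no block, each library left out, all *Il10*- cells and 10 matched cells. Others were thinning to 2000 UMIs, matching on *Il13*, at least 2 *Il10* UMIs, cycling cells left out, and a novelty filter of 0.8. The match on cluster was repeated at resolutions 0.5 and 1.2.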

Additional observations from a re-analysis of the deposited data

Results flagged for a closer look

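The difference between *Il10*+ and *Il10*- cells differed between lung and MLN, by the interaction term in edgeR's quasi-likelihood test, for 10 genes that the rule names. Given as the lung effect minus the MLN effect on the log2 scale, it was 2.19 for *Tigit*, 1.80 for *Pdcd1*, 1.25 for *Fkbp1a* (the FK506-binding protein FKBP12) and 0.86 for the non-coding transcript *Gm42418*, and -5.88 for *Gzmb*, -4.17 for *Isg15*, -3.91 for *Ccr9*, -3.71 for *St3gal6*, -3.38 for *Lztfl1* and -3.10 for *Nr4a3*, an orphan nuclear receptor. The UMIs behind some of these came from few cells. For *Nr4a3*, all 13 UMIs in *Il10*+ cells of MLN 1 lay in 1 cell, and MLN 2 had none in either set of cells. For *Isg15*, 50 of 112 UMIs in MLN 1 lay in 1 of 19 cells with the transcript, and for *Gzmb* 241 of 655 in 1 of 7. In MLN 2, 8 of 9 *Gzmb*, 26 of 35 *St3gal6* and 23 of 36 *Ccr9* UMIs lay in 1 cell, as did 2 of 3 of *Isg15*, and without that cell's UMIs members were no longer above matched cells for *Gzmb* and *Isg15*. In lung 2, 14 of 17 *Pdcd1*, 5 of 9 *Tigit*, 7 of 26 *Fkbp1a* and 388 of 1022 *Gm42418* UMIs lay in 1 cell, and for these 4 genes members were above matched cells only with that cell's UMIs.

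*Il10* was also found outside the cells described. Among IL-4eGFP- lymph node cells, which are not licensed for *Il4*, 17 of 8706 had an *Il10* UMI (0.195%), and 14 of the 17 had *Foxp3*, against 9 of the 84 *Il10*+ cells of the IL-4eGFP+ gate. *Foxp3* was in 904 of all 8706 IL-4eGFP- cells (10.4%) and in 166 of all 8061 IL-4eGFP+ cells (2.06%). In lung and MLN, 30 of 1224 cells that lacked 1 or both TCR chains had an *Il10* UMI (2.45%), 20 of 523 in lung 1, 6 of 208 in lung 2, 4 of 348 in MLN 1 and 0 of 145 in MLN 2.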

How the results depend on the processing

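The number of genes called depended on the settings more than the direction of the named genes. For the 4 libraries, 40 calls became 90 with DESeq2, 248 with no filter, 183 against all *Il10*- cells, 18 with *Il13*-matched cells, 25 with at least 2 *Il10* UMIs (which leaves out MLN 2), 20 without cells with extra TCR chains and 16 to 41 without a library. Without the library block, which ties both sets of cells of a library, 0 genes were called (205 at an unadjusted p under 0.05), with the sign kept for 40 of 40. Of the 40 calls, 38 were kept with DESeq2, 39 against all *Il10*- cells, 21 after thinning and 13, 17, 23 and 30 without lung 1, lung 2, MLN 1 and MLN 2. *Ptms* turned to -0.022 after thinning. With cells matched on cluster, calls were 189 with no filter, 0 without the block and 10 to 76 without a library. They were 68 at cluster resolution 0.5 and 58 at 1.2, where 58 and 40 of the 60 calls were kept. For lung they were 11 with DESeq2, 83 with no filter, 9 without the block, 100 against all *Il10*- cells and 4 to 153 without a library. For MLN they were 100 without the block, 323 against all *Il10*- cells and 12 to 242 without a library, and for the interaction 21 with DESeq2, 14 without the block, 117 against all *Il10*- cells and 7 to 120. *Il10*+ lung against MLN cells gave 71 calls with DESeq2, 144 with the mouse as a block and 113 to 222 without a library. The lymph node run gave 579 with no filter, 712 against all *Il10*- cells, 355 without the block and 258 to 345 without a sample. Shares of *Il10*+ cells after thinning were 4.12% in lung 1, 1.23% in lung 2 and 0.249% in MLN 1. Where a library left out leaves 1 library of an organ, that library is assumed to vary like the others. Depth limits every value, since 53 of 107 members rest on 1 *Il10* UMI and *Il10*- cells may hold *Il10* transcripts that were not captured. The causes of these changes were not tested.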
